A study of Arabidopsis thaliana with 20 samples.

Results

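The genes described here are 9 nuclear genes of Arabidopsis thaliana whose products route electrons around photosystem I or tune the thylakoid membrane. They are PGR5, PGRL1A, PGRL1B, PTOX, STN7, STN8, TAP38, CURT1A and KEA3. They were chosen by gene identifier from the known roles of their products, with earlier results of these data known. They are 9 of the 33104 genes in the deposited tables. Poly-A RNA of whole leaves from plants 4 weeks old was sequenced from 2 genotypes at 5 times, with 2 libraries for each combination and 20 in all. The mutant ilp1-1, a line named for the gene ILP1, stands beside the wild type Col-0, and the labels do not describe its lesion. Plants were raised in days of 10 h light and 14 h dark. The groups of 0 h, in each genotype, had spent 2 h in normal light of 100 µmol photons per m2 and s. High light of 500 µmol then ran without a dark period, with harvests after 4, 8 and 16 h, and the 30 h groups had 24 h of high light followed by 6 h of normal light. Light and time of day thus changed together, no normal-light libraries of the later hours were analysed here, and the labels do not say whether replicates were separate plants or pools. P-values therefore measure the spread between these libraries, which may be technical.

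In linear electron flow, electrons pass from water through photosystem II, plastoquinone, the cytochrome b6f complex and photosystem I to NADP+. In cyclic flow, electrons from ferredoxin at photosystem I return to plastoquinone, through a route that needs PGR5 and PGRL1 or through the NDH complex, so that the membrane is charged with protons without net NADPH. A plastid oxidase can drain plastoquinone to oxygen, kinases and a phosphatase set how light-harvesting complexes and photosystem II are phosphorylated, CURT1 proteins bend the membrane at the edges of the grana, and an antiporter lets protons out of the lumen against potassium.

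The depth came to 11.4 to 19.0 M reads per library, recovered from the deposited FPKM values (fragments per kilobase of gene, scaled for sequencing depth). All 9 genes passed the filter on low values, with 413 to 27767 recovered reads per gene and library. ILP1 itself showed no lower level in ilp1-1-labelled libraries, at 2.72 to 8.90 FPKM there against 2.63 to 3.88 FPKM in Col-0. Its mean difference in log2(FPKM + 1) was 0.44 ± 0.08, limma adjusted p = 0.000194. That difference came from the early times, with 1.09 (limma adjusted p = 0.000381) at 0 h and 0.51 (limma adjusted p = 0.0390) at 4 h. The later differences were 0.01 (limma adjusted p = 0.971) at 16 h and 0.12 (limma adjusted p = 0.655) at 30 h. Plastid-encoded transcripts took 0.0994 to 0.452% of the reads in the 4 libraries labelled ilp1-1 of 4 h and 8 h, against 0.0188 to 0.0349% in the other 16. The tissue label was checked with 4 leaf mesophyll genes, whose summed level ran from 16634 to 44742 FPKM in libraries labelled ilp1-1 and from 28381 to 48282 FPKM in Col-0. Of 6 seed, flower and root genes, SESA3, CRU3 and EXPA7 were at 0 in all libraries, and the sum of the 6 reached at most 2.54 FPKM in libraries labelled ilp1-1 and 0.747 FPKM in Col-0. Guard cell genes (2) summed to 5.33 to 18.0 FPKM in libraries labelled ilp1-1 and 4.73 to 16.8 FPKM in Col-0, and vascular genes (2) to 30.7 to 77.9 and 33.3 to 74.4 FPKM in those genotypes.

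Across the 9 genes the genotypes did not part in 1 direction. PGRL1A and CURT1A were lower in ilp1-1-labelled libraries at every time, and TAP38 was lower at the 4 times after 0 h. PGR5 was lower at 16 h and 30 h. STN7 and KEA3 were higher at 4 h and 8 h in ilp1-1-labelled libraries, and STN7 was lower there at 16 h. PGRL1B passed in no genotype comparison with all libraries, though its mean difference did without 1 of them, as given with its values. In whole leaves, fewer cells of a type and less RNA per cell cannot be told apart. Marker genes of leaf cell types are given as a mean of the 5 times in log2(FPKM + 1). In that comparison 57.2% of all tested genes passed, 29.3% higher and 27.8% lower in ilp1-1-labelled libraries. The 4 mesophyll genes were lower in ilp1-1-labelled libraries (4 of 4, median -0.85). Both guard cell genes were higher, FAMA by 0.42 ± 0.11, limma adjusted p = 0.00424 and MYB60 by 0.35 ± 0.10, limma adjusted p = 0.00907. At single times 1 of the 2 guard cell genes passed at 4 h and 1 at 16 h, and 0 passed at 0, 8 and 30 h. Of the vascular genes SUC2 was lower (-0.32 ± 0.09, limma adjusted p = 0.00561) and APL higher (0.36 ± 0.10, limma adjusted p = 0.00737). Of the seed, flower and root list, the floral gene AG was the 1 tested. It ran from 0.324 to 2.39 FPKM in ilp1-1-labelled libraries and from 0.122 to 0.609 FPKM in Col-0. AG reached the 1 FPKM of the filter only in ilp1-1-labelled libraries, so its difference (0.57 ± 0.10) is given without a test. The part of these markers in the results was not tested.

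**Figure D1:**
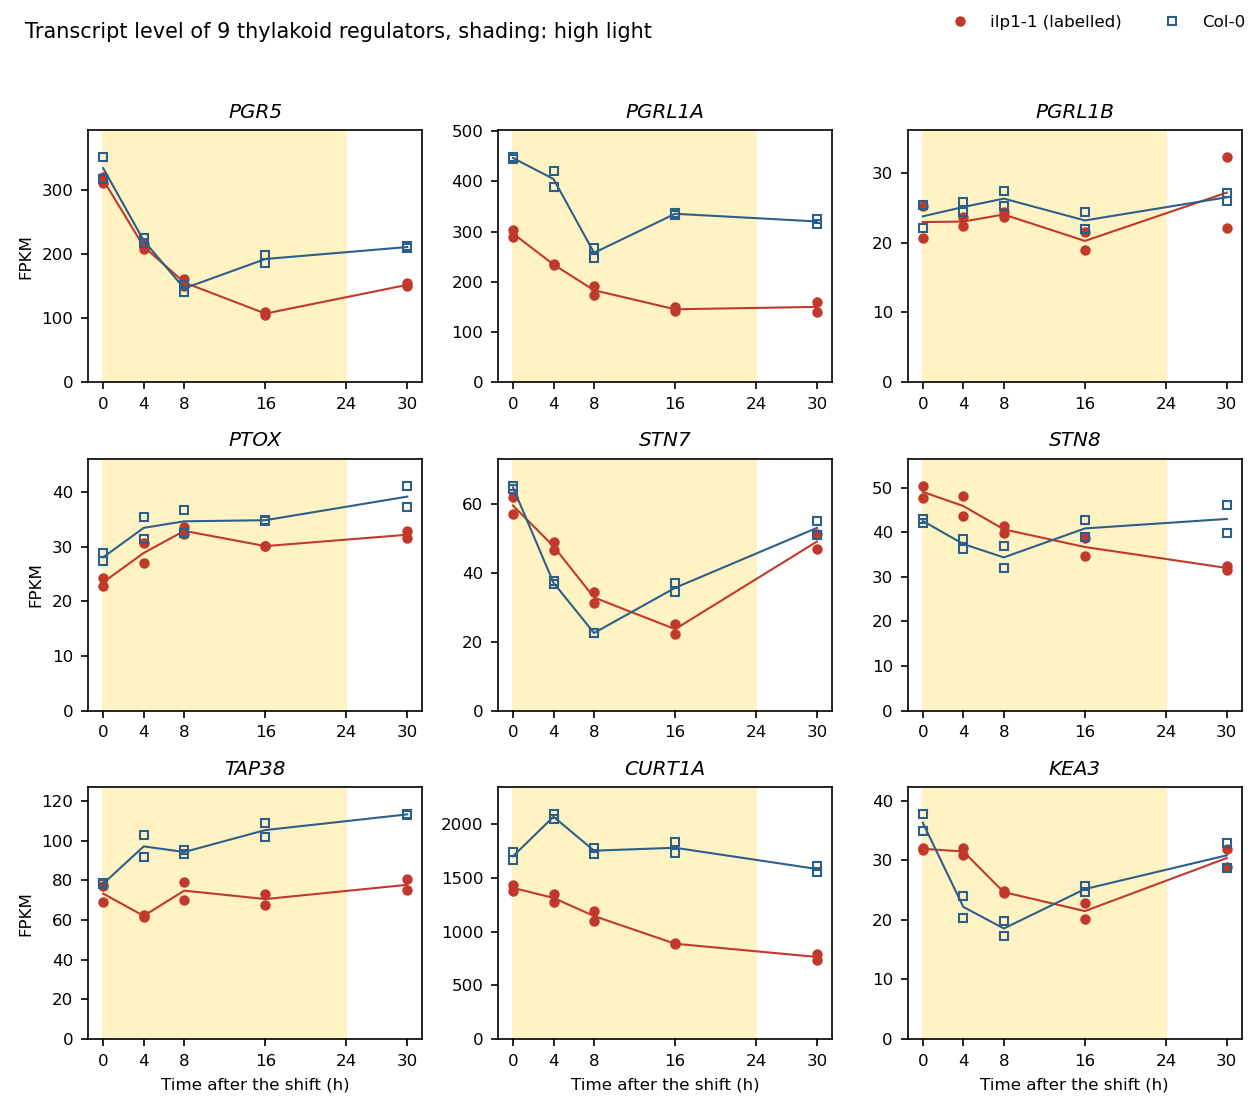
Transcript level in FPKM (vertical axes, from 0) against hours after the shift to high light for the 9 genes, with filled red circles for libraries labelled ilp1-1, open blue squares for Col-0, and lines through the means of 2 libraries. Shading marks the 24 h of high light. PGRL1A and CURT1A stay apart at all 5 times, whereas the STN7 and KEA3 lines cross between 0 h and 4 h and again between 8 h and 16 h.

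Levels compared between genes are in FPKM, which is per length of gene. In the libraries labelled ilp1-1 at 0 h the order was CURT1A (1382 and 1433), PGR5 (321 and 312), PGRL1A (303 and 289.7), TAP38 (77.2 and 69.3), STN7 (57.1 and 61.8), STN8 (50.4 and 47.7) and KEA3 (32.1 and 31.8 FPKM). PTOX (24.2 and 22.8 FPKM) and PGRL1B (20.6 and 25.2 FPKM) came last and overlapped. In Col-0 at 0 h PGRL1A (448 and 445 FPKM) stood above PGR5 (352 and 318 FPKM), and the other genes kept the order given, with PTOX (27.4 and 28.8 FPKM) above PGRL1B (22.1 and 25.4 FPKM). The order of PGR5 and PGRL1A thus differed between the genotypes before high light began.

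All 9 gene positions in the tables equal those of the RefSeq annotation of TAIR10.1, the build used for positions here. PGR5 (AT2G05620) lies at chr2:2080647-2081859 on the minus strand, with 1 intron. PGRL1A (AT4G22890), at chr4:12006986-12009536 on the plus strand, has 9 introns, and PGRL1B (AT4G11960), at chr4:7174886-7177888 on the minus strand, has 10. PTOX (AT4G22260, named AOX4 in the files) lies at chr4:11769668-11772599 on the minus strand and has 8 introns. STN7 (AT1G68830, chr1:25872412-25875662, minus strand) has 9 introns and STN8 (AT5G01920, chr5:359107-361310, plus strand) has 4. TAP38 (AT4G27800, named PPH1 in the files) lies at chr4:13851777-13854237 on the minus strand with 9 introns. CURT1A (AT4G01150, chr4:493546-494885, plus strand) has 3 introns and KEA3 (AT4G04850, chr4:2452664-2457767, plus strand) has 17. The end of STN8 overlaps AT5G01930 on the other strand by 230 bases, and TAP38 overlaps AT4G27790 by 197 bases. The strand setting of the counting is not given in the sources used here, so reads of these overlaps could have gone to either gene or to neither. AT5G01930 measured 7.55 to 24.2 FPKM and AT4G27790 0 to 11.2 FPKM.

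PGR5 is a small stromal protein needed for the antimycin-sensitive route of cyclic flow. Its transcript declined in both genotypes in high light, and the genotypes separated at 16 h. PGR5 stood at 321 and 312 FPKM (0 h), 208 and 216 (4 h), 162 and 150.5 (8 h), 106 and 109 (16 h) and 155 and 149.8 (30 h) in ilp1-1-labelled libraries. Col-0 libraries held 352 and 318 FPKM (0 h), 226 and 218 (4 h), 152 and 142 (8 h), 199.7 and 186 (16 h) and 211 and 213 (30 h). The genotypes overlapped at 0 h and 8 h and lay apart by a small step at 4 h, while both libraries labelled ilp1-1 were below both Col-0 libraries at 16 h and 30 h. Differences below are in log2(FPKM + 1) ± SE, with 2 libraries a group, or 10 a genotype for a mean of the 5 times. The SE is limma's, from 1 spread per gene estimated over all 10 groups. P-values are limma's, adjusted over the 19311 genes tested in a comparison, and a gene passed at an adjusted p under 0.05. The genotype difference did not pass at 0 h (-0.08 ± 0.06, limma adjusted p = 0.402), 4 h (-0.06 ± 0.06, limma adjusted p = 0.492) or 8 h (0.09 ± 0.06, limma adjusted p = 0.322), the last of which passed when libraries were scaled to equal total reads (0.19, limma adjusted p = 0.0238). At 16 h PGR5 was 1.79-fold lower in ilp1-1-labelled libraries (-0.84 ± 0.06, limma adjusted p = 6.97e-08), and at 30 h 1.39-fold lower (-0.47 ± 0.06, limma adjusted p = 2.90e-05).

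The decline of PGR5 from 0 h was of like size in both genotypes at first. At 4 h it came to -0.57 ± 0.06 in ilp1-1-labelled libraries and -0.59 ± 0.06 in Col-0. By 8 h it reached -1.02 ± 0.06 and -1.18 ± 0.06 in those genotypes. From 8 h to 16 h the paths parted. At 16 h the change from 0 h was -1.55 ± 0.06 in ilp1-1-labelled libraries, the deepest point of their course, and -0.79 ± 0.06 in Col-0, whose lowest level was at 8 h. The difference between these changes passed (-0.76 ± 0.09, limma adjusted p = 2.58e-05), as it did at 30 h (-0.39 ± 0.09, limma adjusted p = 0.00610). After the return to normal light PGR5 was higher at 30 h than at 16 h in ilp1-1-labelled libraries (0.50 ± 0.06, limma adjusted p = 9.59e-06). In Col-0 the same step was 0.13 ± 0.06 and did not pass, though it did with libraries scaled to equal total reads (0.18, limma adjusted p = 0.0252). The test of the difference between these steps gave 0.37 ± 0.09, limma adjusted p = 0.0250. It did not hold without Col-0 16 h replicate 1 (0.32, limma adjusted p = 0.101), Col-0 30 h replicate 1 (0.36, limma adjusted p = 0.0699), Col-0 30 h replicate 2 (0.37, limma adjusted p = 0.0677), ilp1-1 16 h replicate 1 (0.34, limma adjusted p = 0.0987) or ilp1-1 30 h replicate 1 (0.34, limma adjusted p = 0.0675).

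PGRL1 is the thylakoid membrane protein that binds PGR5, and Arabidopsis has a pair of genes for it. PGRL1A was the more abundant transcript of the pair in every library and was lower in ilp1-1-labelled libraries at all 5 times. PGRL1B showed no genotype difference that passed. The coding sequences of the copies (975 bases in PGRL1A, 942 in PGRL1B) were 83.6% identical over 937 aligned bases, and their longest shared run was 38 bases. That run is given here with 30 aligned bases on each side, since it bears on whether short reads can be told apart. It covers coding bases 310 to 407 of PGRL1A and 277 to 374 of PGRL1B, and capitals mark the 7 bases at which the copies differ.
PGRL1A: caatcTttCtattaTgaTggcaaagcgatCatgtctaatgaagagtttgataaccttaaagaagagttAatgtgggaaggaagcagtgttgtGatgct
PGRL1B: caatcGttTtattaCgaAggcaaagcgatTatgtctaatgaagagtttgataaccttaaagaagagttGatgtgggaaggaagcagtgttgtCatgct
The 2 stretches of 98 bases differ at those 7 positions, all of them outside the shared run. How the authors' counting treated reads that fit both copies is not given in the sources used here.

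PGRL1A stood at 303 and 289.7 FPKM (0 h), 234 and 235 (4 h), 193 and 174 (8 h), 149 and 142 (16 h) and 141 and 159 (30 h) in ilp1-1-labelled libraries. Col-0 libraries held 448 and 445 FPKM (0 h), 421 and 389 (4 h), 267 and 248 (8 h), 337 and 334 (16 h) and 315 and 325 (30 h). Both libraries labelled ilp1-1 were below both Col-0 libraries at every time, and the widest gap was at 16 h. The difference was -0.59 ± 0.07, limma adjusted p = 1.74e-05 at 0 h, before high light, -0.78 ± 0.07, limma adjusted p = 4.74e-07 at 4 h and -0.49 ± 0.07, limma adjusted p = 5.85e-05 at 8 h. At 16 h PGRL1A was 2.30-fold lower (-1.20 ± 0.07, limma adjusted p = 3.87e-09), and at 30 h 2.13-fold lower (-1.09 ± 0.07, limma adjusted p = 6.99e-09). As a mean of the 5 times the difference was -0.83 ± 0.03, limma adjusted p = 3.95e-12.

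Over time PGRL1A fell without recovery in ilp1-1-labelled libraries, whereas Col-0 had its lowest level at 8 h and was higher at 16 h. The changes from 0 h in ilp1-1-labelled libraries were -0.34 ± 0.07 (4 h), -0.69 ± 0.07 (8 h), -1.02 ± 0.07 (16 h) and -0.98 ± 0.07 (30 h), all past the threshold. In Col-0 they were -0.14 ± 0.07, which did not pass (limma adjusted p = 0.0983) except with total-read scaling (-0.17, limma adjusted p = 0.0267) or limma-voom (-0.14, limma adjusted p = 0.0445), then -0.79 ± 0.07, -0.41 ± 0.07 and -0.48 ± 0.07, which did. The difference between the changes passed at 16 h (-0.61 ± 0.10, limma adjusted p = 0.000376) and 30 h (-0.50 ± 0.10, limma adjusted p = 0.00190), not at 4 h (-0.19 ± 0.10, limma adjusted p = 0.239) or 8 h (0.10 ± 0.10, limma adjusted p = 0.561). From 16 h to 30 h neither genotype passed (0.04 ± 0.07, limma adjusted p = 0.637 in ilp1-1-labelled libraries and -0.07 ± 0.07, limma adjusted p = 0.470 in Col-0).

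PGRL1B stood at 20.6 and 25.2 FPKM (0 h), 22.3 and 23.7 (4 h), 23.7 and 24.4 (8 h), 21.6 and 18.9 (16 h) and 22.1 and 32.2 (30 h) in ilp1-1-labelled libraries. Col-0 libraries held 22.1 and 25.4 FPKM (0 h), 24.4 and 25.8 (4 h), 25.2 and 27.4 (8 h), 24.5 and 21.9 (16 h) and 25.9 and 27.1 (30 h). The genotypes overlapped at 0 h and 30 h, and at the other times both libraries labelled ilp1-1 lay below Col-0 by small steps. The mean difference was -0.09 ± 0.06, limma adjusted p = 0.210, and it passed without ilp1-1 30 h replicate 2 (-0.15, limma adjusted p = 0.0207). At single times it ran from -0.19 ± 0.14 at 16 h to 0.01 ± 0.14 at 30 h. No change from 0 h passed in either genotype with all libraries. The change at 30 h in ilp1-1-labelled libraries (0.22 ± 0.14, limma adjusted p = 0.209) passed with total-read scaling (0.44, limma adjusted p = 0.0117) and without ilp1-1 30 h replicate 1 (0.48, limma adjusted p = 0.00698). The step from 16 h to 30 h passed in ilp1-1-labelled libraries (0.39 ± 0.14, limma adjusted p = 0.0341), where the 2 libraries of 30 h held 22.1 and 32.2 FPKM. Without ilp1-1 30 h replicate 2 it was 0.13, limma adjusted p = 0.502, and without ilp1-1 16 h replicate 2 it was 0.29, limma adjusted p = 0.203. It also missed the threshold with no filter on low values (0.39, limma adjusted p = 0.0536).

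The share of the pair that came from PGRL1A was smaller in ilp1-1-labelled libraries. The ratio of PGRL1A to PGRL1B in FPKM was 13.1 ± 2.27 (0 h), 10.2 ± 0.367 (4 h), 7.63 ± 0.700 (8 h), 7.20 ± 0.413 (16 h) and 5.66 ± 1.01 (30 h) in ilp1-1-labelled libraries (mean ± SD, n = 2). In Col-0 it was 18.9 ± 1.96 (0 h), 16.2 ± 1.51 (4 h), 9.83 ± 1.10 (8 h), 14.5 ± 1.02 (16 h) and 12.1 ± 0.126 (30 h). The ratio was lower in both libraries labelled ilp1-1 than in both Col-0 libraries at each of the 5 times, and its lowest value there came at 30 h. The ratio of PGR5 to PGRL1A ran the other way, at 1.07 ± 0.0115 (0 h), 0.905 ± 0.0199 (4 h), 0.852 ± 0.0187 (8 h), 0.740 ± 0.0453 (16 h) and 1.02 ± 0.112 (30 h) in ilp1-1-labelled libraries and 0.750 ± 0.0506 (0 h), 0.548 ± 0.0164 (4 h), 0.570 ± 0.00156 (8 h), 0.575 ± 0.0245 (16 h) and 0.661 ± 0.00927 (30 h) in Col-0. These ratios are a description, with no test.

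The 250 bases upstream of the 2 PGRL1 genes are shown because the copies, alike in their coding sequence, differed in their transcript course. Capitals mark the motifs found. The window of PGRL1A is chr4:12006736-12006985 on the plus strand and that of PGRL1B is chr4:7177889-7178138 on the minus strand, both from RefSeq's TAIR10.1 and written in the direction of the gene.
PGRL1A: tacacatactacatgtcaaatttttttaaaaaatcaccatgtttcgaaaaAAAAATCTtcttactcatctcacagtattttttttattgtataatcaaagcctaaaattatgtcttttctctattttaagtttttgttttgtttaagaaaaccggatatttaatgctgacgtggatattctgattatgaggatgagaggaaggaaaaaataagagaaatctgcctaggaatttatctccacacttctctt
PGRL1B: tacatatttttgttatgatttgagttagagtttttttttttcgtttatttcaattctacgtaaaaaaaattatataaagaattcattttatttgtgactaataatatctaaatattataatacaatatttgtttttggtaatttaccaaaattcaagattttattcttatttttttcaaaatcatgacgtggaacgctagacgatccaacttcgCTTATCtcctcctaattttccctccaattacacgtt
The capitals in PGRL1A are a CCA1 site (AAAAATCT), 200 to 193 bases before the start. Those in PGRL1B are an I-box (GATAAG) on the reverse strand, 36 to 31 bases before the start. On either strand, 6.69% of 27443 promoter windows of this length held the CCA1 site and 12.3% the I-box. Among the 9 genes, the CCA1 site was found in PGRL1A alone and the I-box in PGRL1B and STN7. The G-box (CACGTG), found in 6.49% of all windows, and the evening element (AAAATATCT), found in 2.36%, were in 0 of the 9. A match describes these letters in this window and is no evidence of binding.

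**Figure D2:**
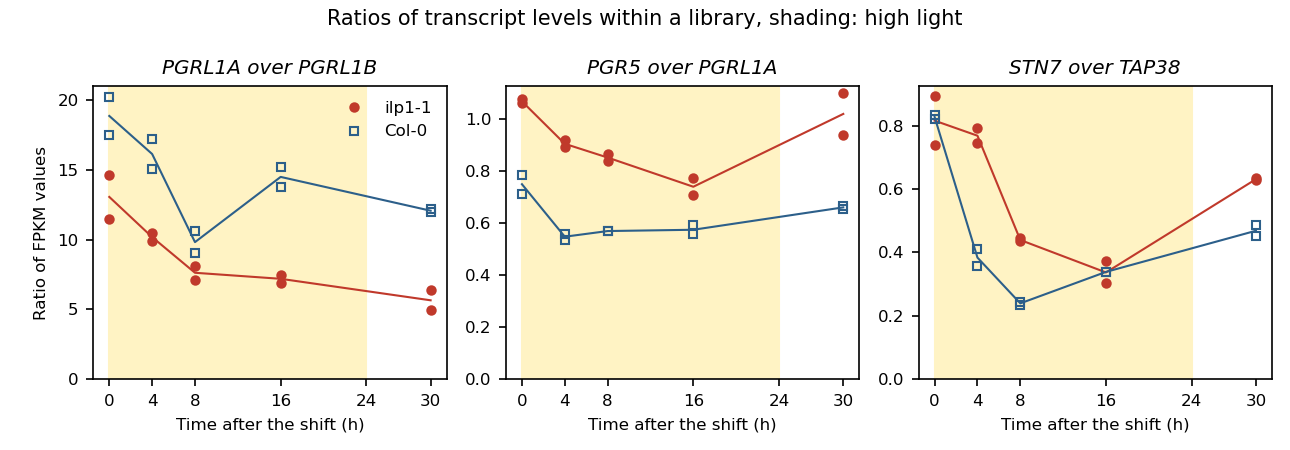
Ratios of FPKM values within a library (vertical axes, from 0) against hours after the shift to high light, with filled red circles for libraries labelled ilp1-1, open blue squares for Col-0, and lines through the means of 2 libraries. At all 5 times the ratio of PGRL1A to PGRL1B lies lower and that of PGR5 to PGRL1A higher in ilp1-1-labelled libraries, and the ratio of STN7 to TAP38 meets at 0 h and 16 h.

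PTOX, the plastid terminal oxidase, takes electrons from plastoquinol to oxygen and serves carotenoid desaturation. Its transcript increased in high light in both genotypes and was slightly lower in ilp1-1-labelled libraries as a mean. PTOX stood at 24.2 and 22.8 FPKM (0 h), 30.8 and 27.0 (4 h), 32.3 and 33.6 (8 h), 30.2 and 30.1 (16 h) and 32.9 and 31.5 (30 h) in ilp1-1-labelled libraries. Col-0 libraries held 27.4 and 28.8 FPKM (0 h), 35.5 and 31.5 (4 h), 36.8 and 32.6 (8 h), 34.8 and 35.0 (16 h) and 41.2 and 37.2 (30 h). The genotypes overlapped at 8 h, and at the other 4 times both libraries labelled ilp1-1 were below both of Col-0. The mean difference was -0.20 ± 0.04, limma adjusted p = 0.000395. It was -0.03, limma adjusted p = 0.520, with libraries scaled to equal total reads. At single times the difference passed at 30 h (-0.27 ± 0.09, limma adjusted p = 0.0234). At 0 h it did not pass (-0.25 ± 0.09, limma adjusted p = 0.0529), but it did with the replicate number as a block (-0.25, limma adjusted p = 0.0397) and without any 1 of the 4 libraries of 4 h (limma adjusted p = 0.0476 to 0.0483). The 30 h call was lost without Col-0 30 h replicate 1 (-0.20, limma adjusted p = 0.175), ilp1-1 30 h replicate 1 (-0.30, limma adjusted p = 0.0508) or ilp1-1 30 h replicate 2 (-0.24, limma adjusted p = 0.120), and with total-read scaling (-0.05, limma adjusted p = 0.650).

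PTOX rose against 0 h at all 4 later times in both genotypes. In the libraries labelled ilp1-1 the rise was 0.28 ± 0.09 (4 h), 0.47 ± 0.09 (8 h), 0.35 ± 0.09 (16 h) and 0.44 ± 0.09 (30 h). In Col-0 it was 0.24 ± 0.09, 0.29 ± 0.09, 0.30 ± 0.09 and 0.47 ± 0.09 at those times. No difference between the genotypes' changes passed, the widest being 0.18 ± 0.12, limma adjusted p = 0.398 at 8 h. The early rises rested on few libraries. At 4 h the call in ilp1-1-labelled libraries was lost without ilp1-1 0 h replicate 2 (0.24, limma adjusted p = 0.0982) or ilp1-1 4 h replicate 1 (0.19, limma adjusted p = 0.172). In Col-0 it was lost without Col-0 0 h replicate 1 at 4 h (0.21, limma adjusted p = 0.153), 8 h (0.26, limma adjusted p = 0.0725) and 16 h (0.27, limma adjusted p = 0.0725), and at 4 h also without Col-0 0 h replicate 2 (0.28, limma adjusted p = 0.0586) or Col-0 4 h replicate 1 (0.16, limma adjusted p = 0.247). At 8 h it was lost without Col-0 8 h replicate 1 (0.21, limma adjusted p = 0.126). With total-read scaling the Col-0 rise at 4 h missed the threshold as well (0.21, limma adjusted p = 0.0533).

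STN7 is the kinase that phosphorylates the light-harvesting complex of photosystem II, which moves excitation towards photosystem I in state transitions. Its transcript had the deepest decline among the 9 genes in Col-0 at 8 h, and the genotypes ran in opposite order at 8 h and 16 h. STN7 stood at 57.1 and 61.8 FPKM (0 h), 46.5 and 48.8 (4 h), 34.4 and 31.1 (8 h), 25.2 and 22.1 (16 h) and 46.9 and 51.1 (30 h) in ilp1-1-labelled libraries. Col-0 libraries held 65.2 and 64.3 FPKM (0 h), 36.6 and 37.5 (4 h), 22.4 and 22.6 (8 h), 34.3 and 36.9 (16 h) and 55.0 and 51.0 (30 h). Both libraries labelled ilp1-1 were above both Col-0 libraries at 4 h and 8 h and below them at 16 h, and the genotypes overlapped at 30 h. STN7 was 1.28-fold higher in ilp1-1-labelled libraries at 4 h (0.35 ± 0.08, limma adjusted p = 0.00355) and 1.44-fold higher at 8 h (0.52 ± 0.08, limma adjusted p = 0.000172). At 16 h it was 1.49-fold lower (-0.57 ± 0.08, limma adjusted p = 6.54e-05). At 0 h (-0.12 ± 0.08, limma adjusted p = 0.310) and 30 h (-0.11 ± 0.08, limma adjusted p = 0.322) it did not pass. These opposite signs met in a mean difference of 0.01 ± 0.04, limma adjusted p = 0.761. Without the 4 libraries labelled ilp1-1 of 4 h and 8 h, which carried the raised plastid share, the mean over the other 3 times was -0.27, limma adjusted p = 0.000475. The part of that plastid share in the 4 h and 8 h values was not tested.

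From 0 h to 8 h STN7 fell 1.79-fold in ilp1-1-labelled libraries (-0.84 ± 0.08) and 2.80-fold in Col-0 (-1.48 ± 0.08), and the difference between these changes passed (0.64 ± 0.11, limma adjusted p = 0.00137). The decline went on in ilp1-1-labelled libraries, to -1.30 ± 0.08 at 16 h, while in Col-0 the change at 16 h was -0.85 ± 0.08. The genotypes' lowest levels were alike in size and 8 h apart, at 25.2 and 22.1 FPKM at 16 h in ilp1-1-labelled libraries and at 22.4 and 22.6 FPKM at 8 h in Col-0. At 30 h STN7 was higher than at 16 h in both, by 1.02 ± 0.08, limma adjusted p = 1.03e-07 in ilp1-1-labelled libraries and 0.56 ± 0.08, limma adjusted p = 5.53e-05 in Col-0. It was still below 0 h at 30 h, by -0.27 ± 0.08 in ilp1-1-labelled libraries and -0.29 ± 0.08 in Col-0. With total-read scaling neither passed (-0.05, limma adjusted p = 0.627 in ilp1-1-labelled libraries and -0.18, limma adjusted p = 0.0896 in Col-0). Nor did they without 1 library. The value was -0.22, limma adjusted p = 0.0833 without ilp1-1 0 h replicate 2 and -0.21, limma adjusted p = 0.0898 without ilp1-1 30 h replicate 1. In Col-0 it was -0.28, limma adjusted p = 0.0529 without Col-0 0 h replicate 1 and -0.23, limma adjusted p = 0.0876 without Col-0 30 h replicate 2. The fall in ilp1-1-labelled libraries at 4 h (-0.31 ± 0.08) was -0.26, limma adjusted p = 0.0566 without ilp1-1 0 h replicate 2.

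TAP38 is the phosphatase that removes the phosphate STN7 adds to light-harvesting complexes. Its transcript rose in Col-0 at all 4 later times, whereas in ilp1-1-labelled libraries no rise passed on the deposited scale, and these libraries were lower at the 4 later times. TAP38 stood at 77.2 and 69.3 FPKM (0 h), 62.4 and 61.7 (4 h), 79.3 and 70.2 (8 h), 67.7 and 73.3 (16 h) and 74.9 and 80.5 (30 h) in ilp1-1-labelled libraries. Col-0 libraries held 78.1 and 78.4 FPKM (0 h), 103 and 91.5 (4 h), 95.3 and 93.1 (8 h), 102 and 109 (16 h) and 113 and 113 (30 h). At 0 h the libraries labelled ilp1-1 lay just below Col-0, and from 4 h on the gap was wider, with no overlap at any time. The difference was -0.10 ± 0.08, limma adjusted p = 0.416 (0 h), -0.63 ± 0.08, limma adjusted p = 1.72e-05 (4 h), -0.33 ± 0.08, limma adjusted p = 0.00447 (8 h), -0.57 ± 0.08, limma adjusted p = 4.60e-05 (16 h) and -0.54 ± 0.08, limma adjusted p = 6.71e-05 (30 h). The 8 h call was lost without ilp1-1 8 h replicate 2 (-0.25, limma adjusted p = 0.0725). As a mean TAP38 was 1.35-fold lower in ilp1-1-labelled libraries (-0.43 ± 0.03, limma adjusted p = 3.87e-08).

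The changes of TAP38 from 0 h in ilp1-1-labelled libraries were -0.23 ± 0.08 at 4 h, the step that passed, then 0.03 ± 0.08, -0.05 ± 0.08 and 0.08 ± 0.08 at 8, 16 and 30 h. With total-read scaling, which raised all genes in that step, the last of these passed as a rise (0.31, limma adjusted p = 0.00240). In Col-0 they were 0.30 ± 0.08, 0.26 ± 0.08, 0.42 ± 0.08 and 0.53 ± 0.08 at 4, 8, 16 and 30 h, all past the threshold. The difference between the changes passed at 4 h (-0.54 ± 0.11, limma adjusted p = 0.00561), 16 h (-0.48 ± 0.11, limma adjusted p = 0.00798) and 30 h (-0.44 ± 0.11, limma adjusted p = 0.0115). At 16 h it was -0.31, limma adjusted p = 0.0630, with total-read scaling, and at 30 h -0.36, limma adjusted p = 0.0518, without ilp1-1 0 h replicate 1. The fall at 4 h in ilp1-1-labelled libraries was lost without ilp1-1 0 h replicate 1 (-0.16, limma adjusted p = 0.200), ilp1-1 4 h replicate 1 (-0.24, limma adjusted p = 0.0741) or ilp1-1 4 h replicate 2 (-0.23, limma adjusted p = 0.0993). In Col-0 the rise at 4 h was lost without Col-0 4 h replicate 1 (0.22, limma adjusted p = 0.0655) and that at 8 h without Col-0 8 h replicate 1 (0.25, limma adjusted p = 0.0576).

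The opposing enzymes were set side by side as the ratio of STN7 to TAP38 in FPKM. It was 0.816 ± 0.108 (0 h), 0.768 ± 0.0328 (4 h), 0.439 ± 0.00672 (8 h), 0.337 ± 0.0492 (16 h) and 0.631 ± 0.00592 (30 h) in ilp1-1-labelled libraries (mean ± SD, n = 2). Col-0 had 0.827 ± 0.00971 (0 h), 0.383 ± 0.0378 (4 h), 0.239 ± 0.00615 (8 h), 0.338 ± 0.00157 (16 h) and 0.468 ± 0.0244 (30 h). Both libraries labelled ilp1-1 were above both of Col-0 at 4, 8 and 30 h, and the genotypes overlapped at 0 h and 16 h. The ratio is of transcript levels and carries no test.

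STN8 is the kinase that phosphorylates core subunits of photosystem II. The genotypes changed places over its course, and by 30 h its level had fallen in ilp1-1-labelled libraries and not in Col-0. STN8 stood at 50.4 and 47.7 FPKM (0 h), 48.1 and 43.7 (4 h), 40.0 and 41.4 (8 h), 38.6 and 34.8 (16 h) and 32.5 and 31.5 (30 h) in ilp1-1-labelled libraries. Col-0 libraries held 42.9 and 42.2 FPKM (0 h), 38.4 and 36.4 (4 h), 36.8 and 31.9 (8 h), 42.7 and 39.0 (16 h) and 46.2 and 39.8 (30 h). Both libraries labelled ilp1-1 were above both of Col-0 at 0, 4 and 8 h and below them at 16 h and 30 h. The difference passed at 4 h (0.29 ± 0.09, limma adjusted p = 0.0240) and 30 h (-0.41 ± 0.09, limma adjusted p = 0.00234), and not at 0 h (0.20 ± 0.09, limma adjusted p = 0.129), 8 h (0.24 ± 0.09, limma adjusted p = 0.0581) or 16 h (-0.15 ± 0.09, limma adjusted p = 0.236). The 4 h call was lost without Col-0 4 h replicate 1 (0.33, limma adjusted p = 0.0517), Col-0 4 h replicate 2 (0.25, limma adjusted p = 0.127) or ilp1-1 4 h replicate 1 (0.22, limma adjusted p = 0.179), and the 30 h call with total-read scaling (-0.19, limma adjusted p = 0.0853). The 8 h value passed with the replicate number as a block (0.24, limma adjusted p = 0.0216) and with total-read scaling (0.34, limma adjusted p = 0.00758), as the 0 h value did with that scaling (0.31, limma adjusted p = 0.0164). It also passed without Col-0 8 h replicate 1 (0.34, limma adjusted p = 0.0340).

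From 0 h to 30 h STN8 fell in ilp1-1-labelled libraries (-0.60 ± 0.09, limma adjusted p = 4.15e-05), while the change in Col-0 was 0.01 ± 0.09 and did not pass. The difference between these changes passed (-0.61 ± 0.13, limma adjusted p = 0.00371). STN8 was also lower than at 0 h at 8 h in both genotypes, by -0.26 ± 0.09 in ilp1-1-labelled libraries and -0.30 ± 0.09 in Col-0, and at 16 h in ilp1-1-labelled libraries (-0.41 ± 0.09). With total-read scaling the values in ilp1-1-labelled libraries missed the threshold at 8 h (-0.19, limma adjusted p = 0.0772) and 16 h (-0.18, limma adjusted p = 0.0997). The 8 h value in ilp1-1-labelled libraries also did so without ilp1-1 0 h replicate 1 (-0.23, limma adjusted p = 0.125), ilp1-1 8 h replicate 1 (-0.24, limma adjusted p = 0.114) or ilp1-1 8 h replicate 2 (-0.29, limma adjusted p = 0.0582). In Col-0 it did so without Col-0 0 h replicate 1 (-0.29, limma adjusted p = 0.0537) or Col-0 8 h replicate 2 (-0.20, limma adjusted p = 0.138).

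CURT1A, the main curvature protein of Arabidopsis thylakoids, was the most abundant of the 9 transcripts. It fell from 8 h on in ilp1-1-labelled libraries, while Col-0 rose at 4 h and ended near its level of 0 h. CURT1A stood at 1382 and 1433 FPKM (0 h), 1349 and 1279 (4 h), 1192 and 1098 (8 h), 884 and 891 (16 h) and 791 and 737 (30 h) in ilp1-1-labelled libraries. Col-0 libraries held 1739.9 and 1663 FPKM (0 h), 2046 and 2093 (4 h), 1781 and 1726 (8 h), 1833 and 1728 (16 h) and 1552 and 1614 (30 h). The highest library labelled ilp1-1, at 0 h, lay below the lowest Col-0 library, at 30 h, so the genotypes did not overlap over the whole course. The difference was -0.27 ± 0.05, limma adjusted p = 0.00208 (0 h), -0.66 ± 0.05, limma adjusted p = 3.24e-07 (4 h), -0.62 ± 0.05, limma adjusted p = 7.87e-07 (8 h), -1.003 ± 0.05, limma adjusted p = 2.89e-09 (16 h) and -1.05 ± 0.05, limma adjusted p = 1.08e-09 (30 h). Fitted on the 4 libraries of 0 h alone, the first of these was -0.27, limma adjusted p = 0.0710. At 30 h CURT1A was 2.07-fold lower in ilp1-1-labelled libraries.

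From 0 h, CURT1A in ilp1-1-labelled libraries changed by -0.10 ± 0.05 at 4 h, which did not pass, then by -0.30 ± 0.05, -0.66 ± 0.05 and -0.88 ± 0.05 at 8, 16 and 30 h, which did. In Col-0 the changes were 0.28 ± 0.05, which passed, and 0.04 ± 0.05, 0.07 ± 0.05 and -0.10 ± 0.05, which did not. The difference between the changes passed at all 4 times, from -0.34 ± 0.08, limma adjusted p = 0.00749 at 8 h to -0.78 ± 0.08, limma adjusted p = 5.12e-06 at 30 h. The step from 16 h to 30 h was -0.22 ± 0.05, limma adjusted p = 0.00422 in ilp1-1-labelled libraries and -0.17 ± 0.05, limma adjusted p = 0.0227 in Col-0. The first was lost without ilp1-1 30 h replicate 2 (-0.16, limma adjusted p = 0.0579). The Col-0 step was lost without Col-0 16 h replicate 1 (-0.13, limma adjusted p = 0.164) or Col-0 30 h replicate 1 (-0.14, limma adjusted p = 0.144), with no filter (-0.17, limma adjusted p = 0.0524) and with total-read scaling (-0.12, limma adjusted p = 0.0897).

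KEA3, the thylakoid potassium and proton antiporter, speeds the relaxation of energy-dependent quenching when light drops. At 4 h it had fallen in Col-0, and in ilp1-1-labelled libraries its change did not pass until 8 h. KEA3 stood at 32.1 and 31.8 FPKM (0 h), 30.9 and 32.1 (4 h), 24.5 and 24.8 (8 h), 22.8 and 20.2 (16 h) and 28.9 and 31.9 (30 h) in ilp1-1-labelled libraries. Col-0 libraries held 34.9 and 37.7 FPKM (0 h), 24.1 and 20.3 (4 h), 19.7 and 17.4 (8 h), 25.7 and 24.6 (16 h) and 32.9 and 28.7 (30 h). At 4 h the libraries labelled ilp1-1 were still at their level of 0 h and above both Col-0 libraries, and at 0 h and 16 h they were below both. KEA3 was 1.41-fold higher in ilp1-1-labelled libraries at 4 h (0.49 ± 0.10, limma adjusted p = 0.00141) and 1.31-fold higher at 8 h (0.39 ± 0.10, limma adjusted p = 0.00703). The 8 h call was lost without Col-0 8 h replicate 2 (0.31, limma adjusted p = 0.0861). The differences at 0 h (-0.18 ± 0.10, limma adjusted p = 0.218), 16 h (-0.22 ± 0.10, limma adjusted p = 0.111) and 30 h (-0.02 ± 0.10, limma adjusted p = 0.908) and as a mean (0.09 ± 0.04, limma adjusted p = 0.0840) did not pass. The mean passed with total-read scaling (0.26, limma adjusted p = 4.14e-05) and without Col-0 4 h replicate 1 (0.12, limma adjusted p = 0.0326) or Col-0 30 h replicate 1 (0.11, limma adjusted p = 0.0455). The libraries with the raised plastid share are those in which KEA3 was higher, and its part in the result was not tested.

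At 4 h the change of KEA3 from 0 h was -0.02 ± 0.10 in ilp1-1-labelled libraries, which did not pass, and -0.69 ± 0.10 in Col-0, which did. The difference between them was 0.67 ± 0.14, limma adjusted p = 0.00643. At 8 h the changes were -0.36 ± 0.10 in ilp1-1-labelled libraries and -0.93 ± 0.10 in Col-0, and the difference between them (0.57 ± 0.14, limma adjusted p = 0.0123) was lost without Col-0 0 h replicate 2 (0.52, limma adjusted p = 0.0559) or Col-0 8 h replicate 2 (0.49, limma adjusted p = 0.0623). By 16 h the changes were -0.55 ± 0.10 in ilp1-1-labelled libraries and -0.51 ± 0.10 in Col-0. At 30 h KEA3 stood above 16 h in both, by 0.48 ± 0.10, limma adjusted p = 0.000903 in ilp1-1-labelled libraries and 0.28 ± 0.10, limma adjusted p = 0.0356 in Col-0. The Col-0 step was lost without Col-0 16 h replicate 1 (0.31, limma adjusted p = 0.0751), Col-0 16 h replicate 2 (0.25, limma adjusted p = 0.150) or Col-0 30 h replicate 1 (0.18, limma adjusted p = 0.274), and without the 4 libraries labelled ilp1-1 of 4 h and 8 h (0.28, limma adjusted p = 0.0555).

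**Figure D3:**
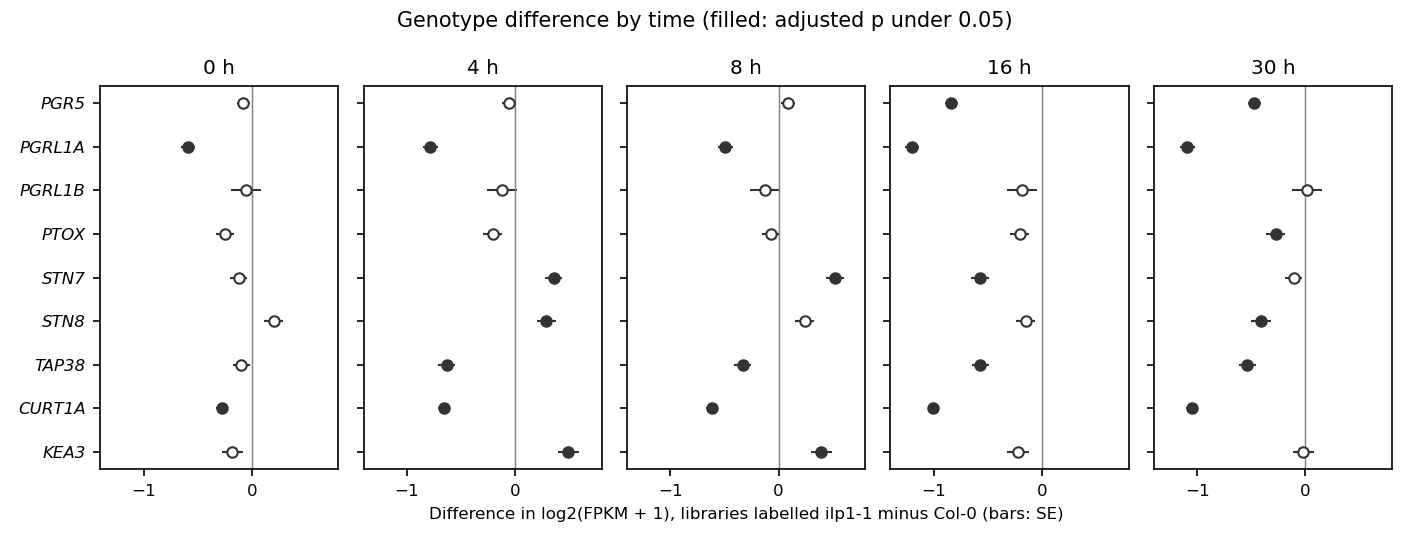
Difference in log2(FPKM + 1) between libraries labelled ilp1-1 and Col-0 (horizontal axes) for the 9 genes at each time, 2 libraries a group, with bars for the SE and filled points for an adjusted p under 0.05. STN7 and KEA3 are right of 0 at 4 h and 8 h and left of it or near it at the other times, while PGRL1A and CURT1A are left of 0 throughout.

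Counted over the 9 genes, the share that passed differed by comparison, and each count is read against the share of all 19311 tested genes that passed in the same comparison. As a mean of the 5 times, 5 of 9 passed, all lower in ilp1-1-labelled libraries, against 57.2% of all genes, so the number of calls is near the background. The median difference of the 9 was -0.20, against 0.01 over all tested genes. By time, 2 of 9 passed at 0 h (0 higher, 2 lower; background 22.2%), 6 at 4 h (3 higher, 3 lower; background 30.6%) and 5 at 8 h (2 higher, 3 lower; background 29.5%). At 16 h 5 passed, all lower (background 27.7%), with a median of -0.57, and at 30 h 6 passed, all lower (background 34.0%), with a median of -0.41. The medians of all tested genes lay between 0.00 and 0.04 at the 5 times.

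For changes from 0 h in ilp1-1-labelled libraries, 5 of 9 passed at 4 h (1 higher, 4 lower; background 41.0%), 7 at 8 h (1 and 6; 47.0%), 7 at 16 h (1 and 6; 43.8%) and 6 at 30 h (1 and 5; 52.1%). PTOX was the gene that rose each time. In Col-0 the counts were 6 at 4 h (3 higher, 3 lower; background 46.1%), 7 at 8 h (2 and 5; 50.1%), 6 at 16 h (2 and 4; 42.0%) and 5 at 30 h (2 and 3; 40.4%). PTOX and TAP38 rose at all 4 times there, joined by CURT1A at 4 h. The difference between the genotypes' changes passed for 4 of 9 at 4 h (background 9.34%), 3 at 8 h (13.3%), 5 at 16 h (14.2%) and 5 at 30 h (16.8%). At 16 h and 30 h all 5 were negative. From 16 h to 30 h, 5 of 9 passed in ilp1-1-labelled libraries (4 higher, 1 lower; background 44.6%), 3 in Col-0 (2 and 1; 37.7%) and 2 for the difference (both positive; 4.63%). Comparisons within a genotype share the libraries of 0 h, and their counts are not independent.

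Most of the other genes listed for these pathways were lower in ilp1-1-labelled libraries as a mean of the 5 times. In that comparison 57.2% of all tested genes passed, 27.8% lower and 29.3% higher, and their median was 0.01. Of 18 genes for NDH subunits, which carry the other route of cyclic flow, 17 were tested and all 17 were lower (median -0.79). PNSB3 (-1.06 ± 0.03), PNSL1 (-1.04 ± 0.03), PNSB2 (-1.02 ± 0.04) and PNSL2 (-1.09 ± 0.04), nuclear-encoded NDH subunits, had the smallest adjusted p. The untested gene, NdhL (AT1G70760), reached at most 0.721 FPKM. Of 6 genes for NDH assembly and its link to photosystem I, 6 were lower (median -0.80), with LHCA6 at -0.78 ± 0.03, CRR3 at -0.93 ± 0.04, LHCA5 at -0.63 ± 0.03 and CRR6 at -0.82 ± 0.05. LHCA5 and LHCA6 are the antenna proteins that join NDH to photosystem I. On the ferredoxin side of photosystem I, 10 of 12 were lower and 0 higher (median -0.51). They include FNR2 (-1.20 ± 0.03) and FNR1 (-0.62 ± 0.02), which reduce NADP+, the thioredoxin TRXM1 (-0.75 ± 0.03) and the leaf ferredoxin FD2 (-0.57 ± 0.03).

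All 8 genes listed for state transitions beside the 3 enzymes were lower (median -0.49). Among them were the photosystem I subunits PSAH2 (-0.72 ± 0.02), PSAO (-0.77 ± 0.03), PSAL (-0.48 ± 0.03) and PSAH1 (-0.49 ± 0.03). The 8 genes for membrane shape beside CURT1A were lower too (median -0.49), with the curvature proteins CURT1B at -0.76 ± 0.02 and CURT1C at -0.81 ± 0.03, the membrane-remodelling protein VIPP1 at -0.73 ± 0.03 and AT5G08050 at -0.51 ± 0.03. Of 10 genes for plastid ion transport, 8 were lower and 0 higher (median -0.34), with KEA1, an antiporter of the envelope, at -0.74 ± 0.04, AT1G64150 at -0.73 ± 0.05, the phosphate transporter PHT4;1 at -0.59 ± 0.04 and AT4G31040 at -0.53 ± 0.04. Of 5 genes for plastoquinone oxidation and carotenoid desaturation, 3 were lower and 0 higher (median -0.34). These 3 were ABC1K3 at -0.58 ± 0.03 and the desaturases ZDS at -0.36 ± 0.04 and PDS3 at -0.34 ± 0.04, while NDC1 stood at -0.10 ± 0.04 (adjusted p = 0.0559). At 8 h, when STN7 and KEA3 were higher in ilp1-1-labelled libraries, the state transition list had 1 gene higher and 3 lower (median 0.01) and the ion transport list had 0 higher and 5 lower (median -0.29), against 14.3% higher and 15.2% lower among all tested genes. The size of the difference varied with time. Medians of the 7 lists ran from -0.48 (state transitions) to -0.11 (ferredoxin side) at 0 h. At 16 h they ran from -1.10 (NDH subunits) to -0.28 (ion transport). At 0 h, 4 of 12 ferredoxin-side genes were lower and 1 higher, and 3 of 10 ion transport genes were lower, beside 22.2% of all tested genes passing.

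**Figure D4:**
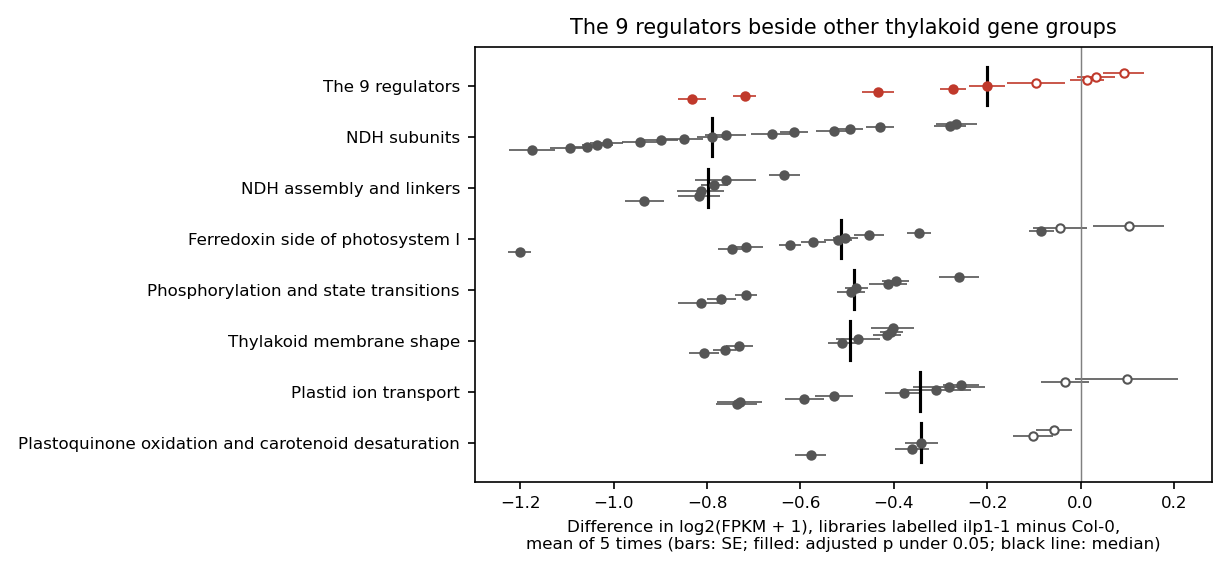
Difference in log2(FPKM + 1) between libraries labelled ilp1-1 and Col-0, as a mean of the 5 times (horizontal axis), for the 9 genes and 7 other thylakoid gene groups, 1 point a gene, with bars for the SE, filled points for an adjusted p under 0.05 and a black line for each group's median. The 9 genes spread from -0.83 (PGRL1A) to 0.09 (KEA3) around a median of -0.20, and the medians of the other groups lie between -0.80 and -0.34.

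Among the 9 genes the profiles of log2(FPKM + 1) over the 20 libraries were most alike for STN7 and KEA3 (Pearson r = 0.93) and for PGRL1A and CURT1A (r = 0.907). PGR5 had r = 0.818 with STN7 and 0.789 with PGRL1A, and PTOX had r = 0.711 with TAP38. These values describe 20 libraries that share their times, genotypes and scaling. Among 12111 other genes with a mean of at least 5 FPKM, the 3 profiles most like PGR5 were those of PSBR (r = 0.964), DXS (0.962) and HEMA1 (0.957), which serve photosystem II, isoprenoid synthesis and tetrapyrrole synthesis. Those nearest to PGRL1A were FKBP16-4 and ZKT (both r = 0.977) and FKBP16-3 (0.971), and those nearest to CURT1A were PETC, the Rieske subunit of cytochrome b6f (r = 0.987), AT1G71500 (0.983) and ATPC1, a subunit of the chloroplast ATP synthase (0.982). STN7 was nearest to ATATH13 (0.959), ABCF5 (0.958) and AT1G77930 (0.957), and KEA3 to AT4G17840 (0.955), PPDK (0.929) and ABCF5 (0.929), so ABCF5 was near both. TAP38 was nearest to AT3G60370 (0.951), AT5G19370 (0.935) and AT3G08740 (0.934). For PTOX they were AT2G42040 (0.918), AT2G16660 (0.909) and FAX2 (0.899), and for STN8 AT3G16175 (0.836), AT1G02020 (0.829) and AT5G47310 (0.811). PGRL1B had its nearest profiles at r = 0.722 (AT3G60690), 0.719 (RABG3F) and 0.718 (AT5G20950).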

How the data were processed

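The deposited data were FPKM values of 33104 genes, in 10 tables of 2 libraries each (1 table for each group). Per the submitters' processing notes, the tools were HISAT2 2.0.5 and featureCounts 1.5.0-p3, with the build TAIR10. Options, strandedness of counting, annotation release and the source of the FPKM step were not given in the sources used here. Each deposited FPKM multiplied by its gene length was a whole number of equal steps in 100% of values (tolerance 0.001 reads), and these steps were taken as reads. The FPKM scaling matched median-of-ratios size factors fitted across the 20 libraries jointly, so values are on 1 scale in the 10 tables.

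The 19311 genes that reached 1 FPKM in 2 or more libraries were fitted as log2(FPKM + 1) with limma 3.58.1 in R 4.3.3 (10 group means, eBayes with an intensity trend, 10 residual degrees of freedom), and p-values were adjusted by Benjamini-Hochberg within each of 21 comparisons. The pseudocount of 1 understates changes of low genes. The fit was run on simulated counts with a single dispersion and no change over time. That run does not cover the uneven spread between replicates given below. Alternatives were a pseudocount of 0.1, no filter, scaling to equal total reads, a replicate block, limma-voom on the recovered reads, each library left out in turn, the 4 libraries of a time alone and, added after seeing the data, a fit without the 4 libraries labelled ilp1-1 of 4 h and 8 h. All 9 genes are named in every comparison, up to 4 genes of each other list by smallest adjusted p in the mean difference, and the 3 nearest profiles of each gene. Members and lists were chosen with earlier results of these data known. Same-numbered replicates did not deviate together (45 correlations from -0.148 to 0.126, median 0.010), so numbers were not used to pair libraries. Replicates of a group differed by more than sampling noise, and unevenly. The chi-square per gene between the 2 libraries was 7.9 at 0 h and 8.7 at 30 h in ilp1-1-labelled libraries. In the other groups it ran from 3.6 to 4.7. The SE, from 1 spread per gene over all 10 groups, does not show this unevenness. Promoter and coding sequences came from RefSeq's TAIR10.1. Tables and figures used Python 3.11.15, pandas 2.3.3 and matplotlib 3.10.9.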

Additional observations from a re-analysis of the deposited data

Results flagged for a closer look

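Listed here are the genes whose change over time differed between the genotypes, step by step, by limma's test of the difference itself. Of all tested genes, 9.34% passed that test from 0 h to 4 h, 13.3% to 8 h, 14.2% to 16 h and 16.8% to 30 h. From 16 h to 30 h the share was 4.63%. Values are the change in libraries labelled ilp1-1 minus the change in Col-0, in log2(FPKM + 1). From 0 h to 4 h, STN7 (0.48 ± 0.11, limma adjusted p = 0.0153) fell less in the libraries labelled ilp1-1 than in Col-0. KEA3 (0.67 ± 0.14, limma adjusted p = 0.00643) fell in Col-0 and its change did not pass in the libraries labelled ilp1-1, while TAP38 (-0.54 ± 0.11, limma adjusted p = 0.00561) and CURT1A (-0.38 ± 0.08, limma adjusted p = 0.00520) rose in Col-0 and did not in the libraries labelled ilp1-1. From 0 h to 8 h the difference passed for STN7 (0.64 ± 0.11, limma adjusted p = 0.00137), KEA3 (0.57 ± 0.14, limma adjusted p = 0.0123) and CURT1A (-0.34 ± 0.08, limma adjusted p = 0.00749).

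From 0 h to 16 h it passed for PGR5 (-0.76 ± 0.09, limma adjusted p = 2.58e-05), PGRL1A (-0.61 ± 0.10, limma adjusted p = 0.000376), STN7 (-0.45 ± 0.11, limma adjusted p = 0.0141), TAP38 (-0.48 ± 0.11, limma adjusted p = 0.00798) and CURT1A (-0.73 ± 0.08, limma adjusted p = 1.04e-05). From 0 h to 30 h it passed for PGR5 (-0.39 ± 0.09, limma adjusted p = 0.00610), PGRL1A (-0.50 ± 0.10, limma adjusted p = 0.00190), STN8 (-0.61 ± 0.13, limma adjusted p = 0.00371), TAP38 (-0.44 ± 0.11, limma adjusted p = 0.0115) and CURT1A (-0.78 ± 0.08, limma adjusted p = 5.12e-06). From 16 h to 30 h it passed for PGR5 (0.37 ± 0.09, limma adjusted p = 0.0250) and STN7 (0.46 ± 0.11, limma adjusted p = 0.0287).

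Of the STN7 values, the one at 4 h missed the threshold without Col-0 4 h replicate 1 (0.46, limma adjusted p = 0.0502), ilp1-1 0 h replicate 1 (0.42, limma adjusted p = 0.0541) or ilp1-1 4 h replicate 2 (0.44, limma adjusted p = 0.0637). At 16 h it did so without Col-0 16 h replicate 2 (-0.40, limma adjusted p = 0.0581), ilp1-1 0 h replicate 2 (-0.40, limma adjusted p = 0.0525) or ilp1-1 16 h replicate 2 (-0.36, limma adjusted p = 0.0762), and with total-read scaling (-0.29, limma adjusted p = 0.0963). The step from 16 h to 30 h did so without Col-0 16 h replicate 2 (0.41, limma adjusted p = 0.105), Col-0 30 h replicate 2 (0.41, limma adjusted p = 0.115), ilp1-1 16 h replicate 2 (0.37, limma adjusted p = 0.119) or ilp1-1 30 h replicate 2 (0.40, limma adjusted p = 0.112).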

How the results depend on the processing

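Of the 105 calls among 189 values of the 9 genes, 74 held under every alternative run, 26 were lost with at least 1 library left out and 15 under another alternative. The cause was not tested. The mean STN7 difference, 0.01 over the 5 times in the full fit, was -0.27 without the 4 libraries labelled ilp1-1 of 4 h and 8 h. The second mean covers 0, 16 and 30 h alone. It leaves out 4 h and 8 h, when STN7 was higher in ilp1-1-labelled libraries (0.35 and 0.52), so its lower value follows from the times averaged. Of the 9 genes, 1 passed at 0 h with the 4 libraries of that time alone (2 in the full fit), and 3 passed for the difference in change from 0 h to 16 h with total-read scaling (5). With 1 library left out, counts ran from 3 to 5 for libraries labelled ilp1-1 from 0 h to 4 h, from 3 to 5 for them from 16 h to 30 h, from 1 to 3 for Col-0 from 16 h to 30 h, and from 0 to 2 for the difference in that step.

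With the replicate number as a block, 184 of 189 values kept their call and 5 more passed, among them STN8 for the difference in change from 0 h to 16 h (-0.35, limma adjusted p = 0.0316), STN8 in Col-0 from 0 h to 4 h (-0.18, limma adjusted p = 0.0496) and STN8 in ilp1-1-labelled libraries from 16 h to 30 h (-0.19, limma adjusted p = 0.0428). A pseudocount of 0.1 changed 0 calls, no filter lost 2, limma-voom added 3 and total-read scaling lost 11 and added 10. That scaling moved the median of all genes to 0.16 in the mean difference, and the share of calls that were higher to 74.1%, against 51.3% as deposited. It ran from 63.1 to 78.1% at the 5 times, against 39.7 to 50.5%. With it, the mean differences of STN7 (0.19), STN8 (0.21) and KEA3 (0.26) passed, beside that median of 0.16. Total-read scaling also raised all genes from 0 h to 30 h within ilp1-1-labelled libraries. There the FPKM denominator over the reads was 0.989 and 0.992 at 0 h and 1.18 and 1.14 at 30 h. The changed calls of TAP38, PGRL1B and STN7 in that step carry this shared shift.

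Over all genes, calls with the 4 libraries of a time alone were 1565 at 0 h (4292 in the full fit), 3878 at 4 h (5900), 3514 at 16 h (5343) and 3974 at 30 h (6573). Without Col-0 0 h replicate 2 they were 2508 at 0 h and 1202 for the difference at 4 h (1804), which was 1179 without ilp1-1 4 h replicate 2. Without ilp1-1 8 h replicate 2 there were 3767 at 8 h (5700), without ilp1-1 16 h replicate 2 there were 3528 at 16 h, and for the difference from 16 h to 30 h (895) there were 556 without ilp1-1 16 h replicate 1 and 547 without Col-0 30 h replicate 2. PGRL1B had the largest SE of the 9 genes (0.14 at a single time), so its differences were the least precisely measured. Its reads ran from 430 to 699 per library, against 413 to 883 for PTOX, whose SE at a single time was 0.09.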
